A study of Mus musculus with 16 samples.

Results

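Mlxipl, Gckr, Pklr, Khk, Pfkl, Pfkfb1, Txnip and Slc2a2 are liver genes of glucose and fructose use that are linked to the transcription factor ChREBP. They were chosen by name, each as the gene whose symbol in the deposited tables is exactly the listed one. Earlier results of these data were known when the list was chosen. They are 8 of the 25803 genes in the joined tables. All 8 passed the filter on low counts, among 14488 genes tested.

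Poly-A RNA of whole liver was sequenced. The mice were male and had eaten a high-fat diet during 12 weeks. Of the 4 groups, 2 were of control genotype and 2 carried a liver knockout of Cpt1a (LKO), which encodes the enzyme that loads long-chain fatty acids onto carnitine for entry into mitochondria. One group of each genotype was necropsied after a 16 h fast (fasted control and fasted LKO), and the other after a 16 h fast and 6 h of refeeding (refed control and refed LKO). Each group had 4 libraries, named here by their column names, S40 to S43 for fasted control, S44 to S47 for fasted LKO, S48 to S51 for refed control and S52 to S55 for refed LKO. All groups shared the diet, the sex and the initial fast, so no chow-fed, female or never-fasted liver enters any comparison. The alleles and the driver used to make the knockout are not given in the sources used here. The labels do not say whether each library came from 1 mouse, and p-values below measure the spread between these libraries.

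ChREBP, the product of Mlxipl, is a transcription factor that pairs with Mlx and binds carbohydrate response elements, and sugar metabolites made inside the hepatocyte raise its activity. In the liver it is known for switching on glycolysis, fructose use and fat synthesis when carbohydrate is plentiful. The listed genes cover the regulator itself, the glucose carrier of the hepatocyte (Slc2a2), a regulator of glucose phosphorylation (Gckr), steps of glycolysis (Pfkl, Pfkfb1, Pklr), the entry step of fructose (Khk) and a glucose-induced arrestin (Txnip).

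Promoter sequence was read for all 8 genes, as the 250 bases before each annotated RefSeq start, 13 windows in all. These come from the RefSeq promoter table of build GRCm38.p6, which is not the build of the gene coordinates below. Each window was searched for the E-box CACGTG and for the pattern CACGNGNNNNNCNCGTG, a carbohydrate response element written as a pair of E-box-like parts separated by 5 bases. Both patterns read the same on either strand, and the long one has 10 fixed bases among its 17. The exact long pattern stood in 1 of the 13 windows, before the second start of Pklr, and in 0.0396% of all 32851 promoter windows. With 1 mismatch allowed it also stood before Txnip, and 0.715% of all windows hold such a match. These 2 windows are shown because they hold the only long matches with at most 1 mismatch among the members, with the matched 17 bases in capitals. The Pklr window is at chr3:89136373-89136622 and the Txnip window at chr3:96557707-96557956, both on the plus strand.
Pklr: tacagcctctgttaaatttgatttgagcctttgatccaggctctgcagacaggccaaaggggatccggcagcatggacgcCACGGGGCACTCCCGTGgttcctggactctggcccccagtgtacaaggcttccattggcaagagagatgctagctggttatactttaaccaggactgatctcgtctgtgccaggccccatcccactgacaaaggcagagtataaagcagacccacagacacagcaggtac
Txnip: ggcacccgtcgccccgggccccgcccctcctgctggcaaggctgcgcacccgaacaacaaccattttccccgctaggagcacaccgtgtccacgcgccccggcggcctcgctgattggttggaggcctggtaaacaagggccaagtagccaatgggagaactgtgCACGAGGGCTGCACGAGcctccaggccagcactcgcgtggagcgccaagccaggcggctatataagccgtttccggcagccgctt

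With the fixed bases of the pattern in capitals and mismatched or free bases in lower case, the 2 matches read as follows, the first at positions -170 to -154 and the second at -85 to -69 from the start.
Pklr: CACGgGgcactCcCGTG
Txnip: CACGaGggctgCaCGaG

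The E-box stood in 2 of the 13 windows, against 6.02% of all windows. One is before a start of Mlxipl (chr5:135089772-135089817, plus strand) and the other before Khk (chr5:30921468-30921513, plus strand), at positions -98 and -71. They are printed with 20 bases on either side and the E-box in capitals.
Mlxipl: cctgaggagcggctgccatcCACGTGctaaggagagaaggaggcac
Khk: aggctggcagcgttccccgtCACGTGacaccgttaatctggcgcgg

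No window of Gckr, Pfkl, Pfkfb1 or Slc2a2 held either pattern in these letters. A match is a string of letters and was not tested as a bound site here. The counts are per gene, so they do not separate the starts of Pklr or of Mlxipl.

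Library totals ran from 14721601 to 24618230 counts, and levels are given as counts per 1000000 (CPM) after scaling for library composition. Cpt1a, the targeted gene, lay between 319 and 619.7 CPM in the control libraries and between 39.9 and 126 CPM in the LKO libraries. The livers carried the markers of hepatocytes at a summed level of 60362 to 67622 CPM in fasted control and 45559 to 59316 CPM in fasted LKO, without overlap, and of 62420 to 81427 against 51364 to 64408 CPM in the refed groups, with overlap. Of the 9 hepatocyte markers, 3 were called lower and 1 higher in fasted LKO than in fasted control, beside 6.48% and 5.75% of all genes. Their median log2 fold change was -0.32. In the refed livers 0 were called by edgeR at a median of -0.30, beside 3.63% of all genes called. There 2 had an unadjusted p under 0.05, with 1 called by DESeq2 and 0 by limma-voom. Lymphocyte markers summed to 4.45 to 8.84 CPM in fasted control and 14.5 to 34.6 in fasted LKO. After refeeding the sums were 4.18 to 5.84 in control and 16.5 to 38.7 in LKO. Of the 6 lymphocyte markers tested, edgeR called 1 higher in each state, Jchain, beside 5.75% fasted and 2.28% refed of all genes. The list median was 0.41 fasted and 0.94 refed on the log2 scale, with 1 and 4 genes at an unadjusted p under 0.05. Adipocyte markers summed to 9.81 to 58.1 CPM in fasted control and 0.448 to 9.63 in fasted LKO. After refeeding they summed to 2.5 to 33.1 in control and 0.563 to 3.46 in LKO. Lep was at 0 in fasted LKO and both refed groups, and Adipoq at 0 in refed control. Of the 5 adipocyte markers only 1, Cfd, passed the filter on low counts. Its log2 fold change for LKO was -3.45 fasted, called lower. In refed livers it was -3.18, not called by edgeR but called by DESeq2. The part of these markers in the results below was not tested. In bulk tissue, fewer cells of a type and less RNA per cell cannot be told apart.

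In fasted livers, 5 of the 8 genes were lower in LKO than in control and none was called higher. Pklr was lowest against control, at 37.2% of its control mean, then Khk at 47.7%, Gckr at 61.1%, Mlxipl at 68.3% and Slc2a2 at 73.4%. Pfkl, Pfkfb1 and Txnip did not pass, and Txnip was the member with a mean above control. In refed livers, 4 genes were lower in LKO, namely Gckr, Khk, Pklr and Mlxipl, at 54.3%, 57.7%, 60.9% and 74.7% of control. The refed count fell to 2, Mlxipl and Gckr, without any one of S40 to S43, S48, S49 or S53 to S55, and with only the refed groups fitted. A gene is called when its edgeR quasi-likelihood p, adjusted over all genes tested by the Benjamini-Hochberg method, is under 0.05. In the fasted comparison 12.2% of all genes tested passed, 5.75% as higher and 6.48% as lower, and in the refed comparison 3.63% passed, 2.28% as higher and 1.35% as lower. The median log2 fold change of the 8 genes was -0.51 fasted and -0.38 refed, beside 0.02 and -0.01 over all genes tested. No library of the LKO group reached the control range for 6 of the 8 genes fasted and for 4 refed, where 8.57% and 5.03% of all genes lay wholly lower.

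**Figure D1:**
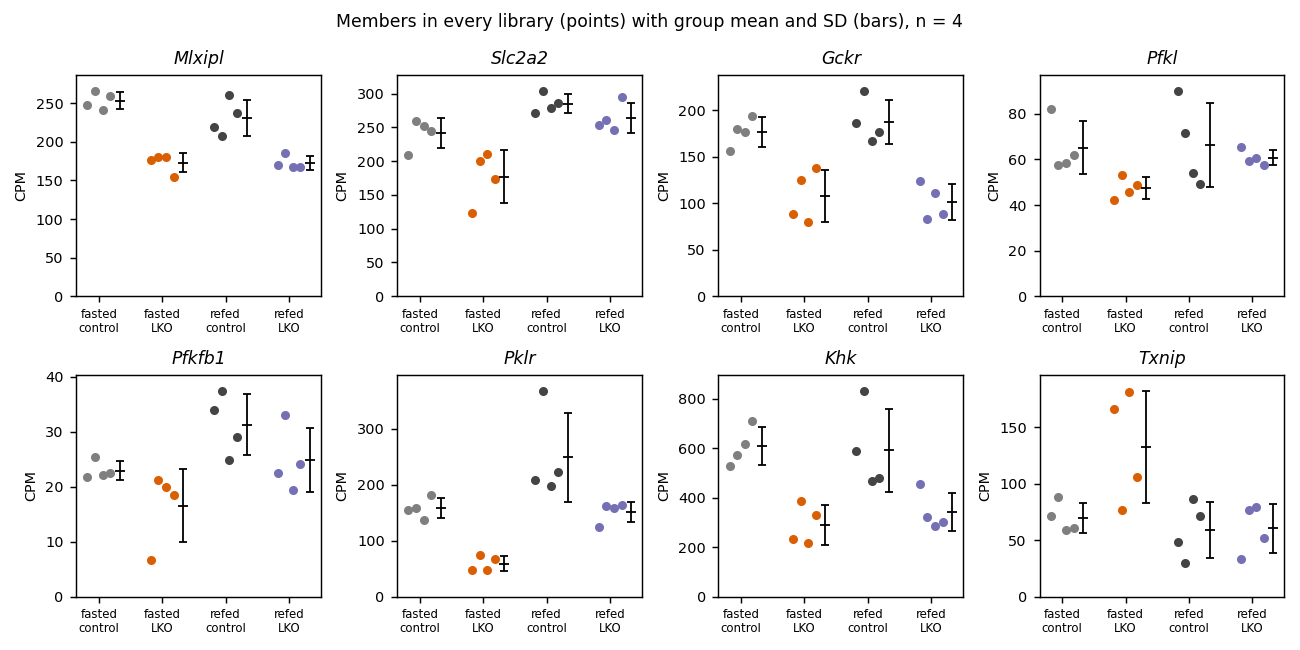
Level of each of the 8 genes in every library, in CPM on a linear axis from 0, by group; points are libraries and the bar beside them is the group mean with its SD (n = 4). Mlxipl, Gckr, Pklr and Khk sit lower in the LKO groups than in the control groups in both feeding states, and Txnip is spread from 76.4 to 181 CPM in fasted LKO.

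Mlxipl (ENSMUSG00000005373, chromosome 5, 135118744 to 135167236, plus strand in the deposited coordinates) encodes ChREBP itself. Its level was 248, 266, 241 and 259 CPM in fasted control and 176, 180.5, 181 and 155 CPM in fasted LKO. The refed control libraries held 219.7, 207, 261 and 238 CPM and the refed LKO libraries 169.8, 186, 168 and 168 CPM. Every LKO library lay below every control library in both states, and the LKO groups had the same mean, 173 CPM, fasted and refed. The log2 fold change for LKO was -0.55 (SE 0.08, edgeR adjusted p = 7.7e-04) fasted and -0.42 (SE 0.08, edgeR adjusted p = 0.0115) refed. Mlxipl stayed called in all 16 fits that each left out 1 library, in both states. Refeeding did not pass the test in either genotype, with log2 fold changes of -0.13 (SE 0.08) in control and -0.00 (SE 0.08) in LKO, whose approximate 95% intervals ran from -0.29 to 0.03 and from -0.17 to 0.16. The sign of the value in LKO is not fixed, since it was 0.01 with only those groups fitted.

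Slc2a2 (ENSMUSG00000027690, chromosome 3, 28752052 to 28785508, plus strand) encodes GLUT2, the carrier that lets glucose into and out of the hepatocyte. Its level was 209, 259, 252 and 245 CPM in fasted control and 124, 201, 211 and 173 CPM in fasted LKO. After refeeding it was 271, 304, 279.5 and 286 CPM in control and 254, 261, 246 and 295 CPM in LKO. The fasted groups overlapped by a narrow margin, S46 of fasted LKO standing above S40 of fasted control, and the refed groups overlapped through S55 alone, the other 3 refed LKO libraries lying below every refed control library. The fasted log2 fold change for LKO was -0.45 (SE 0.13, edgeR adjusted p = 0.0332), and the call was lost in 5 of the 16 fits with 1 library left out, those without S41, S42, S43, S44 or S47. Without S44, the lowest library, the value was -0.31 with an edgeR adjusted p of 0.069, and with only the fasted groups fitted the adjusted p was 0.102. In refed livers the value was -0.11 (SE 0.13, interval -0.36 to 0.14, edgeR adjusted p = 0.706). Slc2a2 rose on refeeding in LKO, by 0.57 on the log2 scale (SE 0.13, edgeR adjusted p = 0.00575), and each refed LKO library lay above each fasted LKO library. In control the refeeding value was 0.24 (SE 0.13, edgeR adjusted p = 0.229), also without overlap, and the interaction did not pass (edgeR adjusted p = 0.379).

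Gckr (ENSMUSG00000059434, chromosome 5, 31454787 to 31484658, plus strand) encodes a regulatory protein that restrains glucose phosphorylation in the hepatocyte when sugar is scarce. Its level was 156, 180, 177 and 194 CPM in fasted control and 88.9, 125, 80.1 and 138 CPM in fasted LKO. In refed control it was 186, 221, 167 and 177 CPM, and in refed LKO 124, 83.5, 111 and 88.3 CPM. The LKO libraries lay below all control libraries in both states. Their SD was 27.8 CPM fasted, against 15.5 in fasted control, and 19.3 refed, against 23.4 in refed control. The log2 fold change was -0.71 (SE 0.16, edgeR adjusted p = 0.0107) fasted and -0.88 (SE 0.17, edgeR adjusted p = 0.00825) refed, called in all 16 fits with 1 library left out in each state. Refeeding moved Gckr by 0.09 (SE 0.16) in control and -0.08 (SE 0.16) in LKO on the log2 scale, neither past the test, with intervals from -0.23 to 0.41 and from -0.41 to 0.24.

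Pfkl (ENSMUSG00000020277, chromosome 10, 77822781 to 77845917, minus strand) encodes the liver subunit of phosphofructokinase, which commits fructose 6-phosphate to glycolysis. Its level was 82.3, 57.5, 58.6 and 62.0 CPM in fasted control and 42, 53.2, 45.6 and 48.8 CPM in fasted LKO. Refed control libraries held 90.0, 71.5, 54 and 49.3 CPM, and refed LKO libraries 65.5, 59.3, 60.7 and 57.7 CPM. The fasted LKO libraries lay below all fasted control libraries, while the refed LKO libraries lay inside the refed control range. The fasted log2 fold change was -0.46 (SE 0.16, edgeR adjusted p = 0.0699) and passed with DESeq2 (adjusted p = 0.0449) and without S48 (0.0321) or S51 (0.0449). The refed value was -0.12 (SE 0.16, edgeR adjusted p = 0.739), with an interval from -0.43 to 0.19.

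Pfkfb1 (ENSMUSG00000025271, chromosome X, 149371225 to 149426874, plus strand) encodes the liver form of the bifunctional enzyme that makes and removes fructose 2,6-bisphosphate, the activator of phosphofructokinase. It was the least abundant of the 8 per kb of deposited gene length, at 5.72 ± 0.42 CPM per kb (SD, n = 4) in fasted control. Its level was 21.8, 25.4, 22.1 and 22.5 CPM in fasted control and 6.64, 21.2, 19.9 and 18.5 CPM in fasted LKO. After refeeding it was 34.0, 37.4, 24.8 and 29.1 CPM in control and 22.5, 33.1, 19.5 and 24.2 CPM in LKO. S44 stood far below the other fasted LKO libraries, which themselves lay just under the fasted control range. The fasted log2 fold change was -0.48 (SE 0.26, edgeR adjusted p = 0.252), and -0.21 without S44. The refed value was -0.34 (SE 0.25, edgeR adjusted p = 0.516).

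Pklr (ENSMUSG00000041237, chromosome 3, 89043449 to 89054091, plus strand) encodes the liver and red cell pyruvate kinase, the last step of glycolysis and a classic target of ChREBP. It is also the member whose promoter window holds the exact long pattern printed above. Its level was 155, 159, 137 and 181 CPM in fasted control and 47.7, 73.4, 47.5 and 66.9 CPM in fasted LKO. Refed control libraries held 208, 367, 198 and 223 CPM, and refed LKO libraries 125, 161, 158 and 163 CPM. The genotypes did not overlap in either state, and refeeding brought the LKO libraries to about the level of fasted control, with means of 152 ± 18 and 158 ± 18.3 CPM (SD, n = 4 each). The log2 fold change for LKO was -1.43 (SE 0.19, edgeR adjusted p = 3.4e-04) fasted, called in all 16 fits with 1 library left out. The refed value was -0.72 (SE 0.19, edgeR adjusted p = 0.044). The refed call held in 6 of those 16 fits and was lost without S52 to S55, S40 to S43, S48 or S49, with limma-voom (adjusted p = 0.0504) and with only the refed groups fitted (0.0768). Without S49, the highest library, the value was -0.47 with an edgeR adjusted p of 0.11.

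Pklr was the one member called for refeeding in both genotypes. It rose on refeeding by 0.65 (SE 0.19, edgeR adjusted p = 0.0267) in control and by 1.36 (SE 0.19, edgeR adjusted p = 2.1e-04) in LKO, and in both genotypes every refed library lay above every fasted library. The call in control was lost without S40, S41, S42 or S49, and without S49 the value was 0.41 with an edgeR adjusted p of 0.0879. The difference between these 2 responses was 0.71 (SE 0.26) at an unadjusted p of 0.0162 and an edgeR adjusted p of 0.189. It passed only without S49 among the 16 fits with 1 library left out, at 0.96 with an edgeR adjusted p of 0.0361.

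Khk (ENSMUSG00000029162, chromosome 5, 31078775 to 31088592, plus strand) encodes ketohexokinase, which phosphorylates fructose as its first step of use in the liver. Per kb of deposited gene length it was the most abundant of the 8, at 339 ± 43.2 CPM per kb (SD, n = 4) in fasted control. Its level was 530.1, 574, 619 and 712 CPM in fasted control and 231, 385, 216 and 329.9 CPM in fasted LKO. After refeeding it was 588, 831, 466 and 481 CPM in control and 456, 323, 287 and 300.4 CPM in LKO. No LKO library reached the control range in either state, though S52 at 456 CPM came close to S50 of refed control at 466 CPM. The log2 fold change was -1.07 (SE 0.21, edgeR adjusted p = 0.00416) fasted, called in all 16 fits with 1 library left out, and -0.79 (SE 0.21, edgeR adjusted p = 0.0488) refed. The refed call held in 6 of the 16 and was lost without S40 to S43, S48 to S50 or S53 to S55, and with only the refed groups fitted (edgeR adjusted p = 0.0705). Without S49 the value was -0.58 with an edgeR adjusted p of 0.131. Refeeding did not pass the test for Khk, at -0.04 (SE 0.21, interval -0.45 to 0.37) in control and 0.23 (SE 0.21, interval -0.18 to 0.65) in LKO.

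Txnip (ENSMUSG00000038393, chromosome 3, 96465273 to 96469199, plus strand) encodes a thioredoxin-binding arrestin that limits glucose uptake and is induced by glucose. Its level was 71.4, 88, 59.1 and 60.8 CPM in fasted control and 166, 76.4, 181 and 106 CPM in fasted LKO. Refed control libraries held 48.2, 29.4, 86.2 and 70.9 CPM, and refed LKO libraries 33.3, 76.9, 79.2 and 52.2 CPM. Of the 4 fasted LKO libraries, 3 stood above all fasted control libraries and S45 stood inside the control range, so the groups overlapped. The fasted log2 fold change was 0.93 (SE 0.33, edgeR adjusted p = 0.077), and without S45 it was 1.11 with an edgeR adjusted p of 0.0343. It also passed without S49 (0.0461) and, at the threshold, with only the fasted groups fitted, where the edgeR adjusted p rounded to 0.05. The refed value was 0.04 (SE 0.33, edgeR adjusted p = 0.971), with a wide interval from -0.61 to 0.68. Txnip fell on refeeding in LKO, with a log2 fold change of -1.14 (SE 0.33, edgeR adjusted p = 0.0248), although the groups overlapped through S45. That call was lost without S44, S46, S52 or S55. In control the refeeding value was -0.25 (SE 0.33, interval -0.89 to 0.39, edgeR adjusted p = 0.651), and the interaction did not pass (edgeR adjusted p = 0.357).

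**Figure D2:**
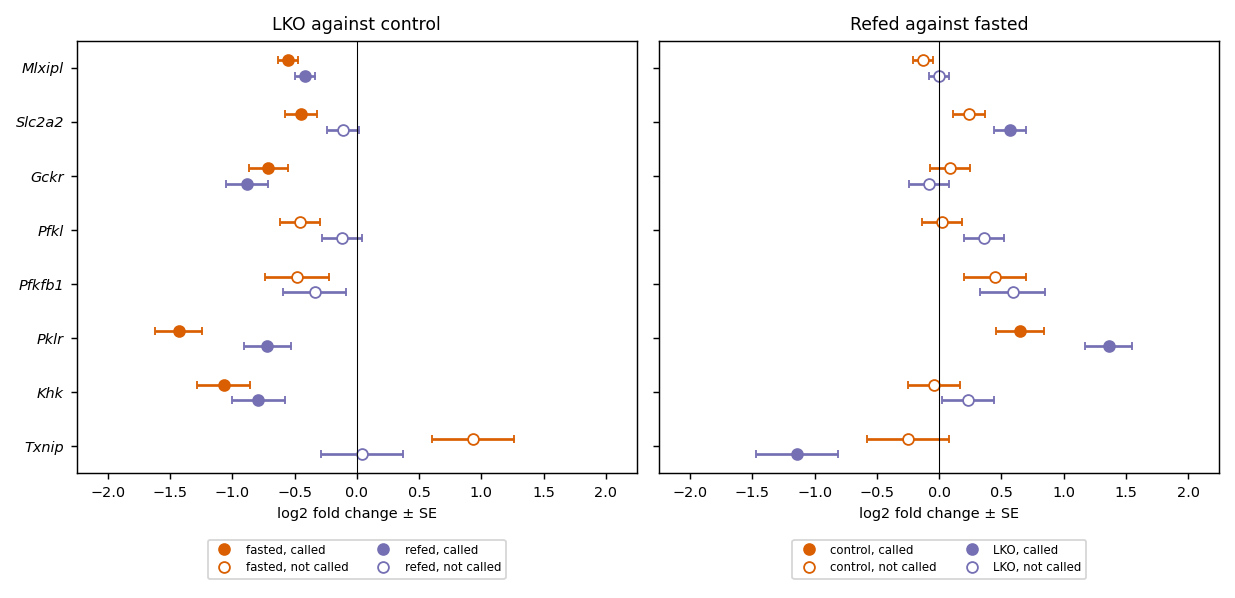
Log2 fold change of each gene with its SE (edgeR, n = 4 libraries a group), LKO against control at left and refed against fasted at right; filled points are called. In the left panel 7 of the 8 fasted values lie below 0, and in the right panel Pklr is the gene with filled points in both genotypes.

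For refeeding, in control livers 1 of the 8 was called, Pklr, where 15.4% of all genes tested passed, 7.79% as higher and 7.65% as lower. In LKO livers 3 were called, with Pklr and Slc2a2 higher and Txnip lower, where 18.1% of all genes passed, 9.28% as higher and 8.78% as lower. Refed libraries lay wholly above fasted ones for 2 of the 8 in control (Pklr and Slc2a2) and 3 in LKO (Pklr, Slc2a2 and Pfkl), as did 10.4% and 10.6% of all genes. The medians were 0.05 in control and 0.30 in LKO, beside 0.01 and -0.02 over all genes tested. The refeeding comparisons share their libraries with the genotype comparisons, so a low level in fasted LKO enters both. For Pfkfb1 the refeeding log2 fold change was 0.45 (SE 0.25) in control and 0.59 (SE 0.26) in LKO, and for Pfkl 0.02 (SE 0.16) and 0.36 (SE 0.16), none past the test. With only the groups compared in the fit, Pfkfb1 passed in control (edgeR adjusted p = 0.0424) and Pfkl in LKO (0.0208).

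Whether the genotype effect differed between the states was tested as an interaction in the same edgeR fit. It called 0 of the 8 genes and 0.538% of all genes tested, 0.311% with a higher and 0.228% with a lower value. At an unadjusted p under 0.05 it gave 1 of the 8, Pklr, and 16.5% of all genes. DESeq2 and limma-voom also called 0. The interaction estimate was -0.89 for Txnip (SE 0.46, interval -1.80 to 0.02) and 0.33 for Slc2a2 (SE 0.18, interval -0.02 to 0.69). For Mlxipl it was 0.13 (SE 0.12, interval -0.10 to 0.36), for Gckr -0.17 (SE 0.23, interval -0.63 to 0.28) and for Khk 0.28 (SE 0.30, interval -0.31 to 0.86). Genes called in one state and not in the other, such as Slc2a2, were therefore not shown to differ between states.

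The authors' deposited tables give adjusted p-values from their own test for the same comparisons. In the authors' deposited table for fasted livers 6 of the 8 were under 0.05, where 7.54% of its listed genes were. That table differed from the fit here by including Txnip (adjusted p = 0.00429) and Pfkl (0.0157) and leaving out Slc2a2 (0.0541). In the authors' deposited table for refed livers 4 were under 0.05, the same Mlxipl, Gckr, Pklr and Khk, where 4.03% of its listed genes were. The authors' deposited tables for refeeding had 2 of the 8 under 0.05 in control and 4 in LKO, where 10.1% and 9.83% of the listed genes were. Beyond the calls of the fit here, the authors' deposited tables thus held Pfkfb1 in control (adjusted p = 0.0191) and Pfkl in LKO (0.00799).

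Levels were also compared per kb of deposited gene length. The order of mean level in fasted control was Khk, Pklr at 48.9, Mlxipl at 45.8, Slc2a2 at 42, Gckr at 40.8, Txnip at 22.4, Pfkl at 9.76 and Pfkfb1 at 5.72 CPM per kb. Pklr, Mlxipl, Slc2a2 and Gckr, with SDs of 5.65, 2.06, 3.86 and 3.56, each differed from its neighbour among these 4 by less than the larger of their SDs. In fasted LKO the order changed for Txnip and Pklr. Pklr, second in fasted control, had a lower mean than Mlxipl, Slc2a2 and Gckr, and Txnip at 42.5 CPM per kb had a higher mean than Mlxipl at 31.3, Slc2a2 at 30.8, Gckr at 24.9 and Pklr at 18.2. The SD of Txnip there, 49.5 CPM around a mean of 133 CPM, was the widest share of its mean among the members in that group after that of Pfkfb1, at 6.7 around 16.6 CPM.

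**Figure D3:**
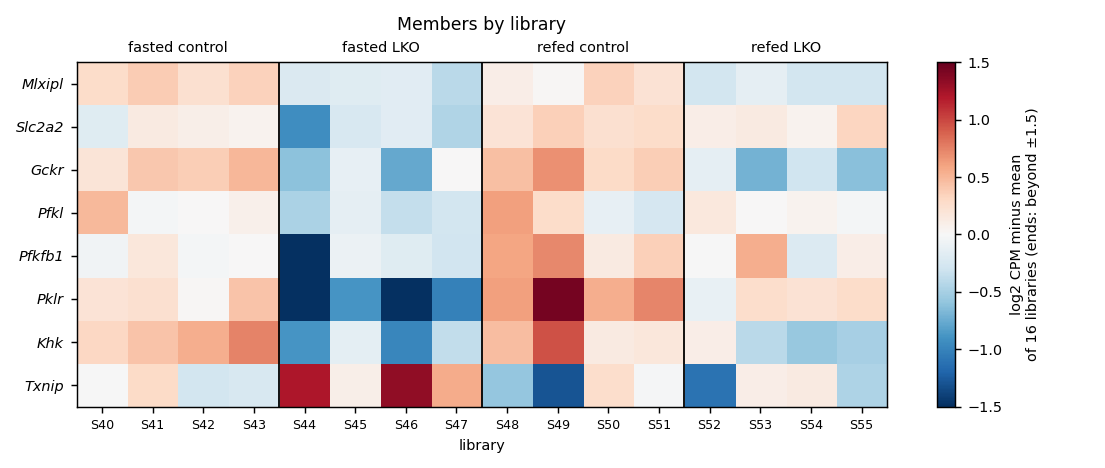
Log2 CPM of each gene in each of the 16 libraries minus its own mean over the 16, in colour (colour ends mark values beyond 1.5), with groups divided by lines. Fasted LKO libraries S44 and S46 are dark for Pklr and Khk and carry the highest Txnip values, 166 and 181 CPM, and S49 is the highest refed control library in 5 of the 8 genes.

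Some libraries stood at the end of their group for several members. S49 was the highest refed control library for Gckr, Pklr, Khk, Pfkfb1 and Slc2a2 and the lowest for Mlxipl and Txnip. Among fasted LKO libraries, S46 was the lowest for Gckr, Pklr and Khk and the highest for Mlxipl, Txnip and Slc2a2. S45 was the highest for Pklr, Khk, Pfkl and Pfkfb1 and the lowest for Txnip. S44 was the lowest for Pfkl, Pfkfb1 and Slc2a2. Mlxipl, by contrast, had little spread in fasted LKO, with an SD of 12.4 CPM around 173.

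Likeness between genes was measured as the root mean square difference of their log2 CPM, each centred on its own mean over the 16 libraries, so that 0 is an identical pattern. Gckr and Khk were the closest pair among the members, at 0.214. Over 8983 candidate genes, the nearest to both Gckr (0.18) and Khk (0.186) was Pygl, the liver glycogen phosphorylase. Slc2a2 was nearest to Hao1, the peroxisomal glycolate oxidase, at 0.12, and Mlxipl to Plg, which encodes plasminogen, at 0.123. Pklr was nearest to Adh1, an alcohol dehydrogenase, at 0.302, and Txnip to the mitochondrial carrier gene Slc25a47 at 0.294. Pfkl was nearest to Nags, which makes the activator of the urea cycle, at 0.163, and Pfkfb1 to Proz, protein Z of coagulation, at 0.212. The measure depends on how far a gene itself moves, so these values do not rank the members by likeness. The root mean square of a member's own centred values was 0.262 for Mlxipl, 0.281 for Pfkl, 0.32 for Slc2a2 and 0.467 for Gckr. For Pfkfb1 it was 0.536, for Khk 0.557, for Txnip 0.676 and for Pklr 0.793. These points share libraries and depth, and the values describe likeness over the 16 libraries alone.

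The other genes of sugar use and of ChREBP were read from lists by role, 68 of them tested. In fasted livers 8 of the 68 were called, 5 higher and 3 lower in LKO, beside 12.2% of all genes, and their median log2 fold change was -0.14. In refed livers 1 was called, Ldha, at a median of -0.02, with 10 at an unadjusted p under 0.05, beside 3.63% of all genes called. Refeeding called 12 higher and 5 lower in control and 12 higher and 5 lower in LKO, beside 15.4% and 18.1% of all genes. The interaction called 0 with edgeR, where 12 had an unadjusted p under 0.05, against 1 with DESeq2 and 0 with limma-voom.

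**Figure D4:**
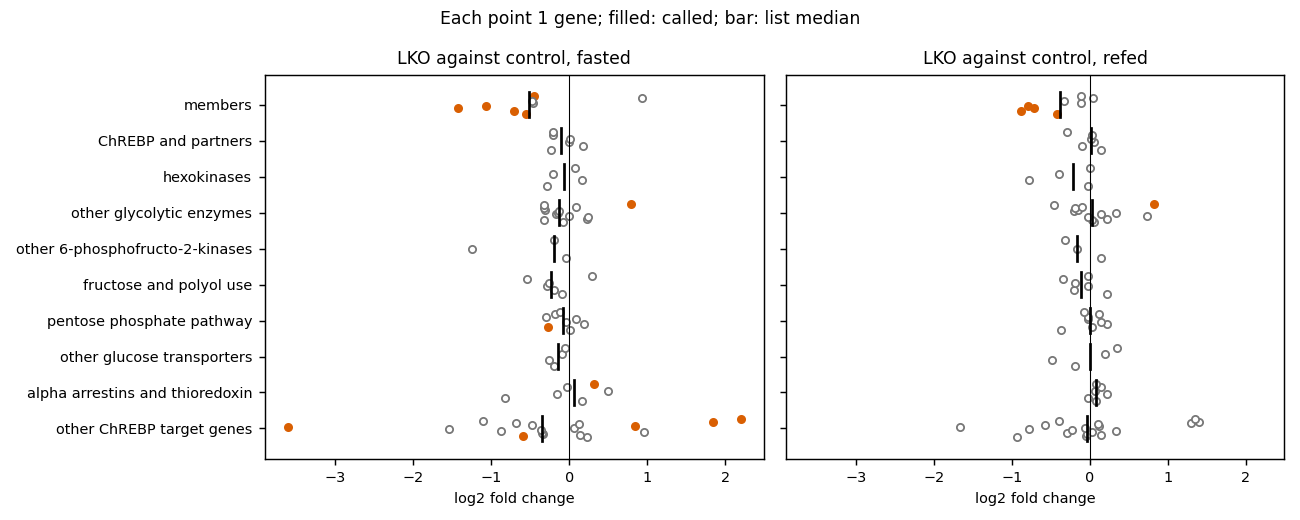
Log2 fold change of LKO against control for each gene (points) of the 8 members and of the lists by role, fasted at left and refed at right on the same axis; filled points are called and black bars are list medians. The member medians are -0.51 and -0.38, and most points of the other lists are open.

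Among partners and relatives of ChREBP, 0 of 6 were called by genotype in either state with edgeR, DESeq2 or limma-voom. Of these 6, 2 fasted and 0 refed had an unadjusted p under 0.05. Over all genes tested, edgeR called 12.2% fasted and 3.63% refed. Mlx, the partner that ChREBP needs to bind DNA, held 20.7, 25.6, 22.7 and 22.6 CPM in fasted LKO and 43.9, 32.6, 33 and 39.8 CPM in refed LKO. It rose on refeeding in LKO by 0.71 (SE 0.11, edgeR adjusted p = 5.2e-04), without overlap. In control the refed libraries also lay above all fasted ones, with a value of 0.33 (SE 0.11, edgeR adjusted p = 0.0573), and the interaction did not pass (edgeR adjusted p = 0.238). Mlxip, the ChREBP paralog MondoA, stood at 7.54 ± 1.23 CPM in fasted control and 8.49 ± 0.279 CPM in fasted LKO (SD, n = 4 each), within overlapping ranges.

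Of 13 other glycolytic enzymes tested, edgeR called 1 in each state, higher in LKO, beside 5.75% and 2.28% of all genes called higher. In fasted livers 4 had an unadjusted p under 0.05, and DESeq2 called 2 and limma-voom 1. Ldha, lactate dehydrogenase A, which turns pyruvate into lactate, stood at 1275 ± 35.8 CPM in fasted control and 2199 ± 281 CPM in fasted LKO, and at 1181 ± 61.3 and 2084 ± 256 CPM in the refed groups (SD, n = 4 each). No control library reached the LKO range in either state. Its log2 fold change was 0.79 (SE 0.10, edgeR adjusted p = 3.1e-04) fasted and 0.82 (SE 0.10, edgeR adjusted p = 5.0e-04) refed. Pklr, the step just before it, moved the other way in both states. Of the 3 other bifunctional enzymes, Pfkfb3 rose on refeeding in LKO by 1.45 (SE 0.42, edgeR adjusted p = 0.0231), a call lost without S44, S47 or S55. Its value in control was 0.37 (SE 0.39), and the interaction did not pass (edgeR adjusted p = 0.361).

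The other genes of fructose and polyol use gave 0 calls among 6 for genotype by edgeR in either state, beside 12.2% and 3.63% of all genes. Of these 6, 1 fasted and 0 refed had an unadjusted p under 0.05. DESeq2 called 1 fasted and 0 refed, and limma-voom 0. Tkfc, triokinase, which phosphorylates the glyceraldehyde made from fructose, rose on refeeding by 1.04 in control (SE 0.19, edgeR adjusted p = 0.00268) and by 1.04 in LKO (SE 0.19, edgeR adjusted p = 0.00149). Its level went from 252 ± 31.5 to 519 ± 199 CPM in control and from 219 ± 10.1 to 451 ± 30.4 CPM in LKO (SD, n = 4 each). Sord, sorbitol dehydrogenase, which makes fructose from sorbitol, rose on refeeding in LKO by 0.50 (SE 0.11, edgeR adjusted p = 0.00413). Its value in control was 0.25 (SE 0.11, edgeR adjusted p = 0.125), without overlap, and the interaction did not pass (edgeR adjusted p = 0.426).

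**Figure D5:**
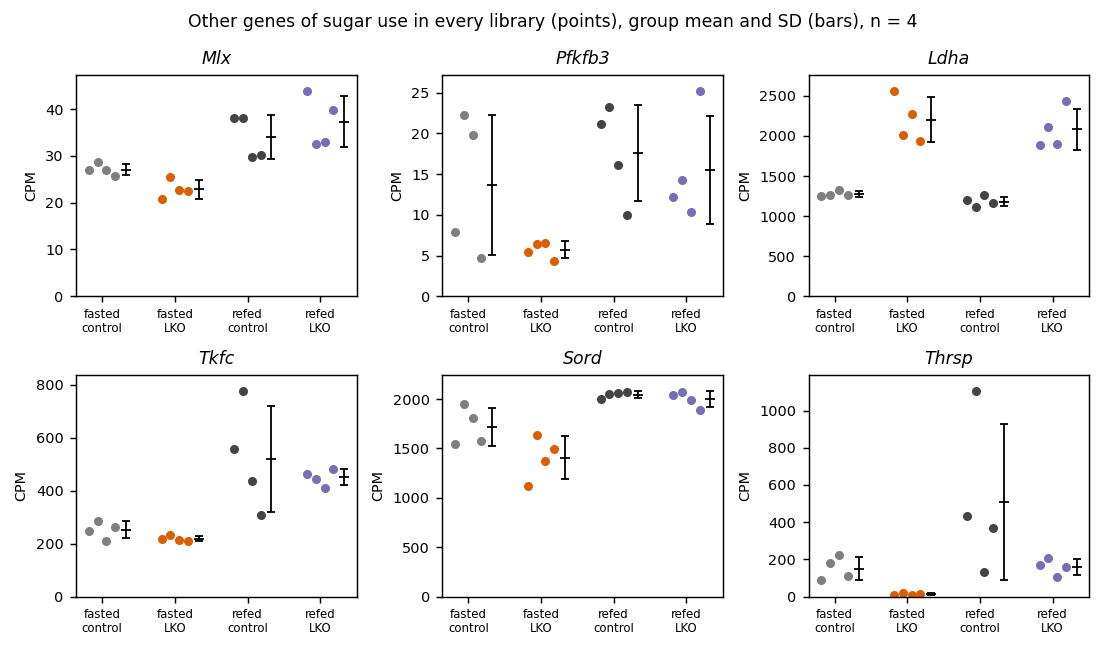
Level of Mlx, Pfkfb3, Ldha, Tkfc, Sord and Thrsp in every library, in CPM on linear axes from 0, by group; points are libraries and the bar beside them is the group mean with its SD (n = 4). Ldha is higher in both LKO groups, and Thrsp is at 7.19 to 21.7 CPM in fasted LKO and at 104 CPM or more in every refed library.

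Among 18 other target genes of ChREBP tested, 3 were called higher and 2 lower in fasted LKO than in fasted control, beside 5.75% and 6.48% of all genes. Thrsp, a lipogenic gene, stood at 90.3, 179, 224 and 109 CPM in fasted control and 7.19, 21.7, 7.79 and 12.6 CPM in fasted LKO, a log2 fold change of -3.61 (SE 0.55, edgeR adjusted p = 7.5e-04) without overlap. Cidec, a lipid droplet protein, was higher by 2.20 (SE 0.50, edgeR adjusted p = 0.00984), and Mttp, which loads lipid onto apolipoprotein B, by 0.84 (SE 0.12, edgeR adjusted p = 4.9e-04). Fgf21, a fasting hormone, was higher by 1.84 (SE 0.57, edgeR adjusted p = 0.0453) and Slc37a4, the glucose 6-phosphate carrier, lower at -0.59 (SE 0.17, edgeR adjusted p = 0.0346), calls that were lost in 8 and 5 of the 16 fits with 1 library left out. In refed livers 0 of the 18 were called by genotype in edgeR, beside 3.63% of all genes, with 6 at an unadjusted p under 0.05. DESeq2 and limma-voom each called 1. Refeeding called 8 higher and 1 lower of the 18 in control and 7 higher and 3 lower in LKO, beside 7.79% and 7.65% of all genes in control and 9.28% and 8.78% in LKO. Acly, which makes acetyl-CoA for fat synthesis, rose by 1.40 (SE 0.27, edgeR adjusted p = 0.00306) in control and 1.70 (SE 0.27, edgeR adjusted p = 4.9e-04) in LKO. Fasn, fatty acid synthase, rose by 1.49 (SE 0.38, edgeR adjusted p = 0.0157) in control, with overlap, and by 2.70 (SE 0.40, edgeR adjusted p = 3.1e-04) in LKO. The call of Fasn in control was lost without S40 or S49, and without S49 the control values were 0.93 for Acly and 0.89 for Fasn.

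Of the remaining lists, the 4 hexokinase genes tested gave 0 calls by genotype in either state with edgeR, DESeq2 or limma-voom. Of these 4, 0 fasted and 1 refed had an unadjusted p under 0.05. Of 8 pentose phosphate genes tested, edgeR called 1 fasted and 0 refed, and of 6 arrestin and thioredoxin genes also 1 and 0. Of 4 other glucose transporters it called 0 and 0, with 0 and 1 at an unadjusted p under 0.05. Beside these lists, edgeR called 12.2% of all genes fasted and 3.63% refed. In fasted livers Pgls of the pentose phosphate pathway was lower at -0.28 (SE 0.08, edgeR adjusted p = 0.0353) and Txnrd1, thioredoxin reductase, higher by 0.31 (SE 0.10, edgeR adjusted p = 0.0484), calls lost in 8 and 11 of the 16 fits with 1 library left out. Arrdc4, the closest relative of Txnip among the arrestins and another gene induced by glucose, was at 0.49 (SE 0.25, edgeR adjusted p = 0.216) fasted and 0.06 (SE 0.25, edgeR adjusted p = 0.94) refed. Slc2a1, the glucose carrier GLUT1, was at -0.20 (SE 0.17) and -0.19 (SE 0.17), neither past the test.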

How the data were processed

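Raw counts per gene of 16 liver libraries were taken from 4 comparison tables that the authors deposited. Per the submitters' processing notes, reads were aligned with HISAT2 2.0.5 to mm39; the counting tool and its use of strand are not given in the sources used here. The deposited tables also hold log2 fold changes and adjusted p-values from the authors' own test, which were turned to LKO minus control or refed minus fasted where printed, and gene lengths, used here for CPM per kb. Another 64 columns of normalised values per library were not used. The tables were joined on the gene identifier. Counts of a library that appeared in several tables were identical (0 differed), and 3148 genes missing from a table were given 0 counts in its libraries where no other table listed them. Count columns name a group and no replicate number.

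Counts were tested with edgeR 4.0.16 in R 4.3.3 (TMM scaling with factors from 0.941 to 1.07, filterByExpr, quasi-likelihood test, Benjamini-Hochberg adjustment over 14488 genes, called under 0.05), with all 4 groups in 1 fit. The biological coefficient of variation was 0.185. Intervals are approximate 95% intervals from the SE, where SE is the log2 fold change divided by the root of the test's F. Alternatives were other scalings and filters, DESeq2 1.42.0, limma-voom 3.58.1, only the groups compared, and each library left out in turn.

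All 8 members, and genes of 9 lists of sugar use and ChREBP, could be named; a listed gene was named for being called or for its role beside a member. Some listed genes are not reported here and were left out of the lists' counts. Members and lists were chosen with earlier results of these data known. Of the marker lists, the stellate, endothelial, macrophage, neutrophil, cholangiocyte and red cell sums overlapped between genotypes in both states. Within them edgeR called Dcn of 8 stellate markers higher and Alas2 of 5 red cell markers lower in fasted LKO. In refed LKO it called Clec4g of 6 endothelial and Ly6c2 of 8 macrophage markers higher. Over all genes it called 12.2% fasted and 3.63% refed. The macrophage median was -0.08 fasted and -0.47 refed, with 0 and 4 at an unadjusted p under 0.05. The red cell median was -0.76 fasted and 0.38 refed. The 1 pancreatic acinar gene measured lay at 20.6 to 34.3 CPM in fasted control and 11.6 to 16.2 in fasted LKO. After refeeding it lay at 21 to 32.5 in control and 12.9 to 14.4 in LKO.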

Additional observations from a re-analysis of the deposited data

Results flagged for a closer look

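Over 32 groups of 4 libraries (8 genes in 4 groups), 3 held a library whose gap to its nearest neighbour was a larger share of the group's range than Dixon's 95% value allows for 4 samples. In refed control, S49 held 367 CPM of Pklr, above libraries at 198 to 223 CPM. In refed LKO, S52 held 125 CPM of Pklr, below libraries at 158 to 163 CPM, and S53 held 186 CPM of Mlxipl, above libraries at 168 to 169.8 CPM. The test marks about 5% of groups by chance.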

How the results depend on the processing

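Counts of calls moved with the setting. With only the groups compared in the fit, 2 members were called for genotype in refed livers (4 with all groups) and 2 for refeeding in control (1 with all groups). The lists of other genes gave 2 calls in refed livers with DESeq2, with limma-voom and with only the groups compared (1 in edgeR). Over all genes, DESeq2 called 924 in refed livers (526 in edgeR). The interaction called 1 listed gene with upper quartile scaling, a mean of at least 5 CPM or DESeq2 (0 in edgeR), and over all genes 197 and 458 with the last 2 settings (78 in edgeR). Leaving out each library in turn gave 4 to 6 called members fasted, 2 to 4 refed, 0 to 1 for refeeding in control, 2 to 3 in LKO and 0 to 1 for the interaction. For the lists the ranges were 4 to 10, 1 to 2, 11 to 19, 11 to 19 and 0 to 3, and over all genes 1048 to 1985, 197 to 601, 1220 to 2483, 1795 to 2730 and 8 to 282. The cause was not tested.

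Among members, the signs that turned belonged to values that were not called. Listed genes were followed through the settings only in the comparisons that called them, and there 0 signs turned. With limma-voom the refeeding value in control was -0.00 for Pfkl. For Mlxipl in LKO it was 0.00 with DESeq2 size factors, DESeq2 and limma-voom, and 0.01 with no filter and with only the groups compared. With 1 library left out, the genotype value in refed livers ran from -0.24 to 0.06 for Pfkl and -0.18 to 0.29 for Txnip. The refeeding value in control ran from -0.00 to 0.14 for Gckr, -0.25 to 0.06 for Khk and -0.16 to 0.16 for Pfkl. In LKO it ran from -0.05 to 0.03 for Mlxipl and -0.20 to 0.05 for Gckr, and the interaction from -0.13 to 0.30 for Pfkfb1. Of 272 member values under the other settings, 258 kept sign and side of the threshold, as did 577 of 640 with 1 library left out. No paired analysis was possible because the count columns carry no replicate number.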
